A study of Mus musculus with 6 samples.

Results

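The 9 genes described here sense and move sterols, and their RNA was measured in mouse embryonic stem cells with and without tamoxifen treatment to delete Ezh2. They are the SREBP genes Srebf1 and Srebf2, the escort gene Scap, the retention genes Insig1 and Insig2, the uptake regulator Mylip, the intracellular sterol carriers Npc1 and Stard4, and the efflux pump gene Abca1. They were chosen by known function, with earlier results of these data known, and were found through their Ensembl identifiers, and all 9 were among the 22933 genes of the deposited table. Each had at least 10 reads per library on average and passed the filter on low values. Ezh2 encodes the catalytic subunit of Polycomb repressive complex 2, which methylates lysine 27 of histone H3.

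The study sequenced total RNA of stem cells with floxed Ezh2 alleles, grown on gelatin in medium with serum, serum replacement and leukaemia inhibitory factor. The tamoxifen group (3 libraries, labelled Ezh2 KO, the deleted state) was given 4-hydroxytamoxifen at 800 nM for 96 h, and its RNA was taken after 4 days. The untreated group (3 libraries, labelled Ezh2 wild type) carried the same floxed alleles and was given no tamoxifen. Effects of the drug and of the deletion cannot be told apart in this design, and the Cre driver, the line and a vehicle are not given in the sources used here. Nothing states that the replicates were separate cultures, so p-values measure the spread between these libraries, which may be technical.

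Libraries held 2334438 to 5110226 recovered reads in the tamoxifen group and 2678202 to 5689666 in the untreated group. Recovered reads are the whole-number read counts worked back from the normalized values, and RPM below is such reads scaled to a common library total. Ezh2 had normalized values of 2258, 2559 and 2609 in tamoxifen libraries, against 4165, 3620 and 3483 in untreated libraries. Its mean in tamoxifen libraries was 65.9% of the untreated mean (limma adjusted p = 0.195), and a value for the whole gene does not separate exons inside and outside the deletion. All 10 stem cell markers checked, such as Pou5f1 and Sox2, had reads, with summed normalized values of 83017 to 86844 in tamoxifen and 72578 to 102856 in untreated libraries.

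Cells hold membrane cholesterol steady by a feedback loop. The SREBP proteins are transcription factors made as membrane precursors, and SCAP carries them from the endoplasmic reticulum to the Golgi for cleavage when sterols are scarce. When sterols are plentiful the INSIG proteins hold SCAP back, so genes of cholesterol synthesis are transcribed less. A second sensor, the nuclear receptor LXR, is activated by oxysterols and turns on genes of sterol export such as Abca1, along with Mylip and Srebf1.

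The start-site regions of the members with the smallest p-values (Abca1 and Insig1) and of both SREBP genes are shown, since these factors are known to act through such regions. RefSeq (GRCm38.p6) gave 12 promoters for 7 of the 9 members, each with 250 bases before and 50 after a transcription start, read 5′ to 3′ on the strand of the gene. Capitals mark matches on either strand to the Sp1 box GGGCGG, the NF-Y box CCAAT, the E-box CACGTG, the sterol regulatory element TCACNCCA, and a pair of LXR half-sites spaced as a direct repeat, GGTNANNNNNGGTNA. The regions are chr4:53159846-53160145 (minus strand) for Abca1, chr11:60210422-60210721 (minus strand) for the third of 3 Srebf1 promoters, chr15:82147019-82147318 (plus strand) for Srebf2 and chr5:28071162-28071461 (plus strand) for Insig1.
Abca1: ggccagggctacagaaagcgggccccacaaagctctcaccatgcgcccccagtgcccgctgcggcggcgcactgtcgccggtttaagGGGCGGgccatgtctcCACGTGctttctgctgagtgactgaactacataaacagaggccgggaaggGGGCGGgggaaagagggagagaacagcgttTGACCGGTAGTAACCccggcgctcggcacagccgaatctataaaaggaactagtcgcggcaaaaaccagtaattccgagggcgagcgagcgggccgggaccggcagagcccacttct
Srebf1: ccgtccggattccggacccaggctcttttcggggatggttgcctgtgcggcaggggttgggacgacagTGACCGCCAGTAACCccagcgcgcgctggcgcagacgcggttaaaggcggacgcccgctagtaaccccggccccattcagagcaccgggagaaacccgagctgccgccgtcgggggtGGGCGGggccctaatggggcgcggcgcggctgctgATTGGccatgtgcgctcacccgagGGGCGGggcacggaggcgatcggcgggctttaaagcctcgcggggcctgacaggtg
Srebf2: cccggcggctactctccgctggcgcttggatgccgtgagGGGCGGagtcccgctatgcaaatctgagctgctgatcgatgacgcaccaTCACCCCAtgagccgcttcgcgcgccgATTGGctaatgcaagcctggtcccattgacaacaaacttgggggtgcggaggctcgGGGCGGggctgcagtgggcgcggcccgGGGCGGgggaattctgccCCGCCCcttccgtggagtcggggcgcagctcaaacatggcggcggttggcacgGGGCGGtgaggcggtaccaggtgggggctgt
Insig1: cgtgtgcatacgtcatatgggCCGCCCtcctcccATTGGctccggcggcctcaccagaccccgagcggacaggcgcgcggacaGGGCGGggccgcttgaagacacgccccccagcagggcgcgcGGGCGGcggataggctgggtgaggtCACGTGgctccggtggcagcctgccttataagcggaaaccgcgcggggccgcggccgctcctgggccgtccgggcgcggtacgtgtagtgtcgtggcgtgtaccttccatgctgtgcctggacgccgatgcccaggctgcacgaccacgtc

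The half-site pair was present in 2 of the 12 promoters, those of Abca1 and Srebf1 shown here, and in 0.718% of all 32851 RefSeq promoters of that length. The other Srebf1 promoters had no such pair. Both genes are known to be turned on by LXR, as stated above, so these shares are no test of enrichment. It began at position -67 from the start in Abca1 and at -182 in Srebf1, both on the strand opposite the gene. The sterol regulatory element matched in 1 of the 12, at -162 in Srebf2, and in 4.36% of all promoters. A longer form ending in one more C (TCACNCCAC), searched first, was in none of the 12 and in 1.24% of all promoters. The E-box stood in 4 of the 12 (Abca1, Insig1 and both of Scap, whose promoters overlap and share 1 site) and in 7.15% of all promoters. Sp1 boxes stood in 10, the overlapping Scap promoters included, and NF-Y boxes in 6, against 35.7% and 37.4% of all promoters. These are letter matches, and no binding was measured here.

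Among the 9 genes the smallest p-values belonged to Abca1, which was higher in tamoxifen libraries, and Insig1, which was lower. None of the 9 passed the test across all genes (limma, Benjamini-Hochberg adjusted p under 0.05), where 0.195% of the 17427 genes tested were called. At an unadjusted p under 0.05, 3 of the 9 passed (Abca1, Insig1 and Stard4), against 9.34% of all genes. On RPM, Abca1 had an unadjusted limma p of 0.000685, whereas Insig1 had 0.168 and Stard4 had 0.912. On recovered reads with trimmed-mean scaling, a setting added after the data were seen, the unadjusted limma p was 0.000321 for Abca1, 0.00141 for Insig1 and 0.355 for Stard4. The groups did not overlap for 4 genes. Abca1 and Insig2 were higher in every tamoxifen library, as were 7.92% of all genes, and Insig1 and Stard4 were lower in every one, as were 7.33%. Each of these 4 had an exact two-sided permutation p of 0.1, the smallest that 3 against 3 libraries allow. The median log2 fold change of the 9 was -0.22, and that of all genes tested was -0.0037.

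**Figure D1:**
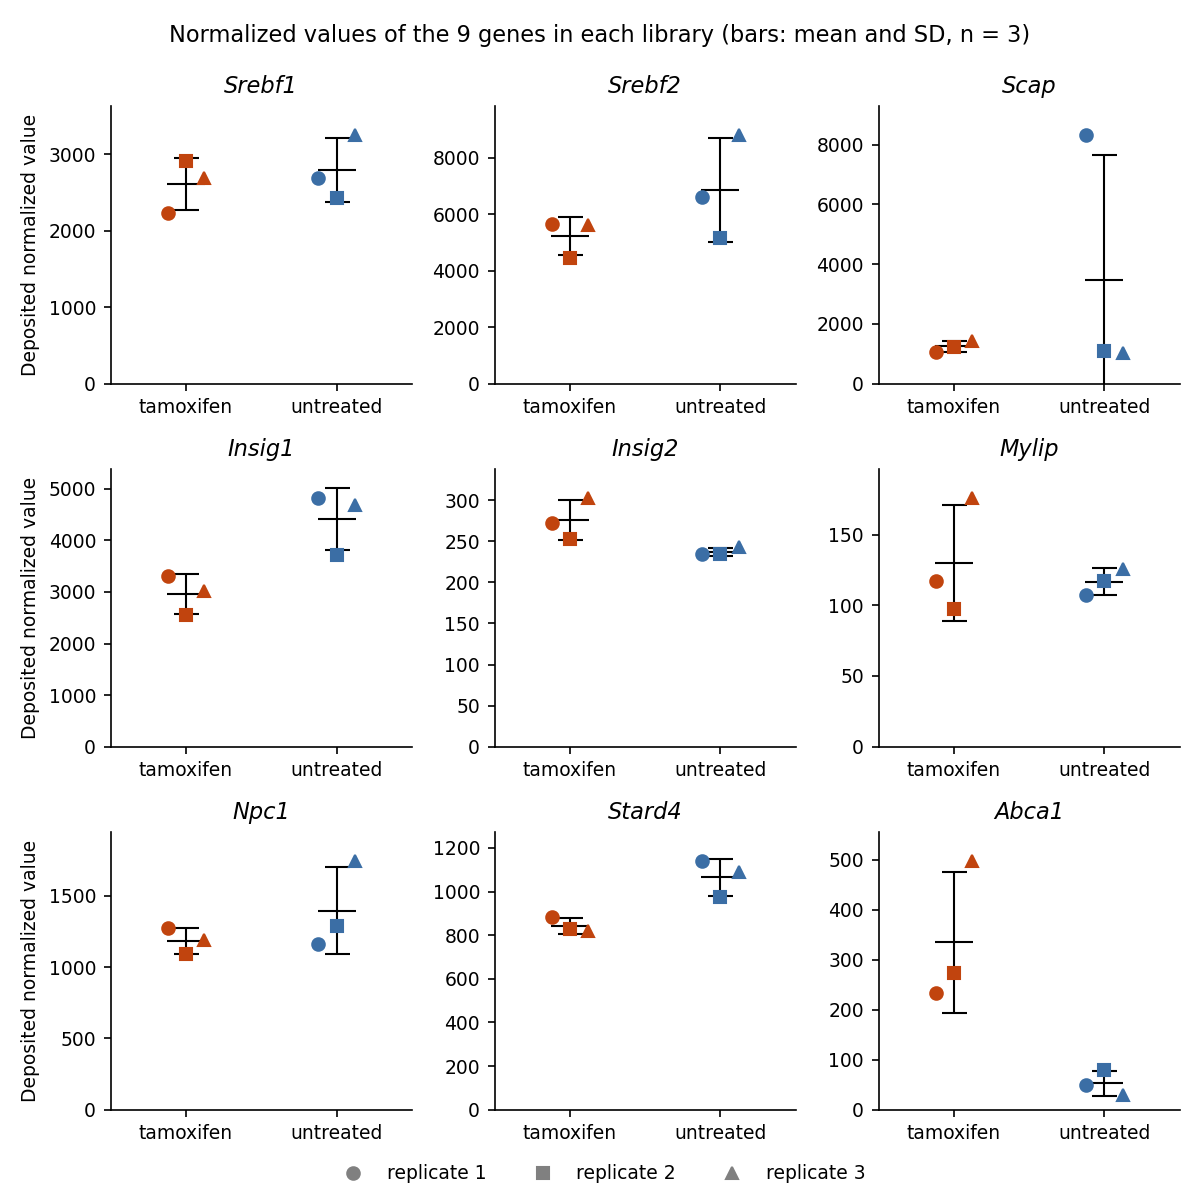
Deposited normalized values of the 9 genes (vertical axes, each starting at 0) in tamoxifen and untreated libraries, with 1 symbol per replicate number and bars for the mean and SD (n = 3). Abca1 stands at 234 to 497 in tamoxifen libraries and at 29.8 to 78.6 in untreated libraries, while Scap has 1 untreated library at 8311.

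The SREBP factors come first in the loop. In GRCm38 Srebf2 (ENSMUSG00000022463) spans bases 82147181 to 82205379 of chromosome 15 (plus strand) and Srebf1 (ENSMUSG00000020538) bases 60199089 to 60222581 of chromosome 11 (minus strand). Srebf2, whose protein mainly drives cholesterol synthesis and uptake genes, had values of 5644, 4457 and 5615 in tamoxifen libraries, against 6607, 5168 and 8796 in untreated libraries. The groups overlapped, since untreated replicate 2 lay below 2 of the tamoxifen libraries. Its mean was 5239 ± 677 in tamoxifen and 6857 ± 1827 in untreated libraries (SD, n = 3 each), a log2 fold change of -0.36 with a 95% interval from -0.88 to 0.16 (limma adjusted p = 0.661).

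Srebf1 makes the SREBP-1 forms, of which SREBP-1c mainly drives fatty acid synthesis. Its values were 2238, 2909 and 2686 in tamoxifen libraries, against 2695, 2433 and 3249 in untreated libraries, fully interleaved. The log2 fold change was -0.10 (95% interval -0.47 to 0.28, limma adjusted p = 0.856), and it was positive, at 0.11, on RPM. The table has 1 value per gene, so transcripts from different Srebf1 promoters are not separated. The log2 ratio of Srebf1 to Srebf2 was -1.33, -0.62 and -1.06 in tamoxifen libraries, against -1.29, -1.09 and -1.44 in untreated libraries. The difference of 0.27 lay within the overlap of the groups (exact two-sided permutation p = 0.4).

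Scap encodes the sterol-sensing escort of both SREBPs, and 1 library decided its difference. Its values were 1071, 1226 and 1441 in tamoxifen libraries, against 8311, 1100.1 and 1031 in untreated libraries. Untreated replicate 1 stood 5.77 times above the next library, on 1048 reads, whereas the other 5 libraries lay between 1031 and 1441. On RPM it stood 4.55 times above the next. The log2 fold change was -0.77 with all libraries (95% interval -2.71 to 1.17, limma adjusted p = 0.771) and 0.22 without untreated replicate 1. Such single-library excesses were seen elsewhere in the table. Of 7935 genes with at least 50 reads on average, 84 (1.06%) had 1 library at least 5 times above the next in normalized value. Of these, 12 had it in untreated replicate 1. The limit was set after the Scap values were seen, and Scap would not reach it on RPM. The gene (ENSMUSG00000032485) lies on chromosome 9 from 110333288 to 110384950 on the plus strand of GRCm38. Ptpn23, on the opposite strand, lies 132 bases beyond its end and had values of 1401, 1303 and 1090.3 in tamoxifen and 963, 964 and 1342 in untreated libraries, with no excess in untreated replicate 1. The neighbour on the other side, Elp6, also showed none, at 671 there against 495 to 681 in the other untreated libraries.

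The INSIG genes differed in opposite directions, neither of them called. Insig1 (ENSMUSG00000045294) spans bases 28071363 to 28078662 of chromosome 5 (plus strand) and Insig2 (ENSMUSG00000003721) bases 121304353 to 121332589 of chromosome 1 (minus strand). Insig1, itself a known SREBP target that feeds back on the pathway, had values of 3308, 2549 and 3017 in tamoxifen libraries, against 4817, 3718 and 4689 in untreated libraries. All 3 tamoxifen libraries lay below the lowest untreated one. The mean was 2958 ± 383 in tamoxifen and 4408 ± 601 in untreated libraries (SD, n = 3 each), so tamoxifen libraries held 67.1% as much. On the log2 scale this was -0.57 (95% interval -0.95 to -0.20, limma adjusted p = 0.342). On RPM it was -0.52, with a 95% interval from -1.27 to 0.24 that spans 0 (limma adjusted p = 0.892). With trimmed-mean scaling of the recovered reads it was -0.79 (95% interval -1.20 to -0.38, limma adjusted p = 0.236). Its reads ran from 136 to 455 per library.

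Insig2, the paralogue known to be less dependent on SREBP in other cells, had values of 273, 253 and 302 in tamoxifen libraries, against 234, 234 and 243 in untreated libraries. Every tamoxifen value was above every untreated one, but the RPM values overlapped, at 10.1 to 15.7 in tamoxifen against 5.60 to 11.7 in untreated libraries. The log2 fold change was 0.22 (95% interval -0.27 to 0.70, limma adjusted p = 0.766) on 15 to 80 reads per library.

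The balance of the pair was compared within each library, where a factor common to all genes of a library cancels. Scaling that differs between genes does not cancel, and the size of the difference depended on the measure. The log2 ratio of Insig1 to Insig2 was 3.60, 3.33 and 3.31 in tamoxifen libraries, against 4.36, 3.98 and 4.27 in untreated libraries. The difference was -0.79 on deposited values and -1.27 on RPM, with the groups apart on both. The exact two-sided permutation p was 0.1, the smallest possible, in a family of 2 such ratios. On deposited values Insig1 was lower and Insig2 higher in every tamoxifen library, which fixed this outcome. There the ratio is no further test of the pair. On RPM, where Insig2 overlapped, the outcome was not fixed in this way. Counted as reads per kb of exon, Insig1 exceeded Insig2 by 5.64, 4.36 and 4.59 times in tamoxifen libraries and by 10.5, 12.5 and 12.9 times in untreated libraries. Insig1 was the more abundant transcript in every library, by a smaller factor in each tamoxifen library.

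Next come the genes of uptake and transport inside the cell. Mylip (ENSMUSG00000038175), on chromosome 13 from 45389742 to 45412022 (plus strand), encodes a ubiquitin ligase that marks the LDL receptor protein for degradation. It had values of 117, 97.3 and 176 in tamoxifen libraries, against 107, 117 and 126 in untreated libraries, on 8 to 42 reads per library. The groups overlapped, with tamoxifen replicate 3 the highest, and the log2 fold change of 0.11 (95% interval -0.74 to 0.96, limma adjusted p = 0.939) became -0.13 without that library. RPM did not overlap, but only narrowly, at 3.897 to 8.22 in tamoxifen against 2.99 to 3.891 in untreated libraries. The libraries at that margin, replicate 1 of each group, had 15 reads each. On RPM the median log2 fold change of all genes was 0.24, and the share of all genes without overlap is not given here.

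Npc1 (ENSMUSG00000024413), on chromosome 18 from 12189692 to 12236400 (GRCm38, minus strand), encodes the lysosomal membrane protein that releases cholesterol taken up with lipoproteins. Its values were 1275, 1090.0 and 1188 in tamoxifen libraries, against 1158, 1285 and 1741 in untreated libraries. They overlapped, and untreated replicate 3 was the highest. The log2 fold change was -0.22 (95% interval -0.65 to 0.21, limma adjusted p = 0.761), and 0.028 on RPM, where the median of all genes was 0.24.

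Stard4 (ENSMUSG00000024378), on chromosome 18 from 33199355 to 33213862 (GRCm38, minus strand), encodes a soluble sterol carrier and is a known SREBP-2 target. Values were 885, 827 and 818 in tamoxifen libraries, against 1139, 973 and 1088 in untreated libraries. Every tamoxifen value lay below every untreated one. The mean was 843 ± 36.7 in tamoxifen and 1067 ± 84.8 in untreated libraries (SD, n = 3 each), with a log2 fold change of -0.34 (95% interval -0.63 to -0.04, limma adjusted p = 0.495). On recovered reads the groups overlapped. RPM was 18.7, 28.3 and 23.7 in tamoxifen and 37.9, 20.0 and 14.9 in untreated libraries, and the log2 fold change was 0.046, or -0.19 relative to the median of all genes.

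Abca1 (ENSMUSG00000015243), on chromosome 4 from 53030787 to 53159895 (minus strand), encodes the membrane pump that loads cellular cholesterol and phospholipid onto apolipoprotein A-I. Its normalized values were 234, 273 and 497 in tamoxifen libraries, against 49.5, 78.6 and 29.8 in untreated libraries. The lowest tamoxifen library lay well above the highest untreated one. The mean was 335 ± 142 in tamoxifen and 52.6 ± 24.6 in untreated libraries (SD, n = 3 each), a log2 fold change of 2.67 (SE 0.50, 95% interval 1.47 to 3.88), or 6.38-fold on the log2(value + 1) scale. It was not called (limma adjusted p = 0.179).

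The reads behind these Abca1 values were 48, 49 and 149 in tamoxifen libraries, against 28, 38 and 8 in untreated libraries. As RPM they were 12.5, 21.0 and 29.2 in tamoxifen and 7.26, 6.68 and 2.99 in untreated libraries, again without overlap. The log2 fold change was smaller on reads, at 1.85 on RPM (95% interval 0.89 to 2.82, limma adjusted p = 0.201) and 1.59 with trimmed-mean scaling (95% interval 0.91 to 2.27, limma adjusted p = 0.177). Leaving out 1 library at a time gave log2 fold changes from 2.33 to 3.01 on deposited values, never called.

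**Figure D2:**
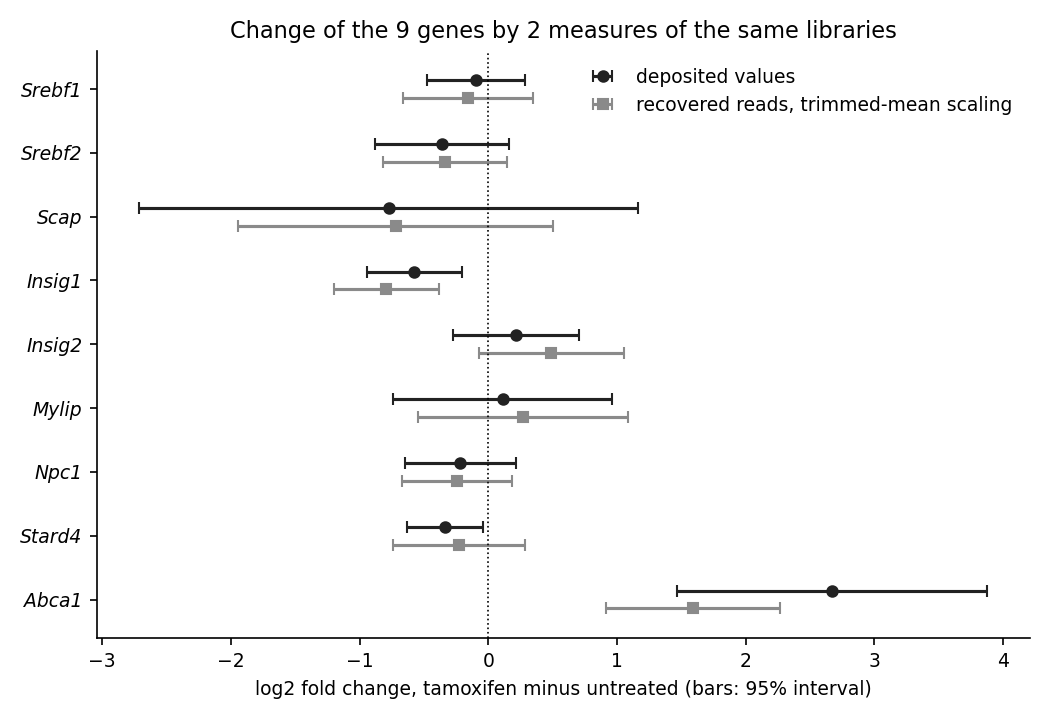
Log2 fold changes (horizontal axis, tamoxifen minus untreated) of the 9 genes with 95% intervals from limma, on deposited values (circles) and on recovered reads with trimmed-mean scaling (squares). Both intervals of Abca1 lie above 0 and both of Insig1 below 0, and the point for Abca1 is at 2.67 on deposited values and 1.59 on reads. The read setting drawn was added after the data were seen. On RPM, not drawn, the Insig1 interval ran from -1.27 to 0.24 and spanned 0.

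Markers of other lineages were also higher where Abca1 was. Of 15 primitive and visceral endoderm markers, 14 were higher in tamoxifen libraries, 10 of them without overlap, as were 7.92% of all genes. None of the 15 was called, against 0.195% of all genes tested. Their summed normalized values were 27914 to 31988 in tamoxifen and 10892 to 15772 in untreated libraries. None of the 15 was at 0 in all libraries. All 8 tested trophoblast markers were also higher, 5 of them without overlap and none called, with summed values of 9057 to 10121 in tamoxifen and 4352 to 6854 in untreated libraries and Tpbpa at 0 in all 6. The 10 fibroblast markers summed to 704 to 1173 in tamoxifen and 589 to 1058 in untreated libraries, overlapping, with Lum at 0 in all 6 and Postn at 0 in every untreated library. The part of such cells in the Abca1 and Insig1 values was not tested. In bulk RNA, fewer cells of a type and less RNA per cell cannot be told apart.

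The genes whose profile over the 6 libraries lay nearest to that of Abca1 were Anxa8, Mical2 and Perp. Likeness was the root mean square difference of centred log2(value + 1) profiles, at 0.45, 0.47 and 0.50 for these genes out of 11113 compared. Anxa8 had values of 457, 349 and 418 in tamoxifen and 106, 136 and 38.0 in untreated libraries. Mical2 had 88.1, 68.6 and 108 in tamoxifen and 10.5, 10.6 and 10.4 in untreated libraries. Perp, a p53 target, had 3075, 2296 and 2550 in tamoxifen and 555, 584 and 426 in untreated libraries. Of these 3, Perp alone was called (limma adjusted p = 0.0102), and Anxa8 and Mical2 rested on 2 to 39 and 3 to 38 reads per library. Because the 3 were picked for likeness to Abca1, their higher tamoxifen values follow from that choice. Neither those values nor the p-value is separate evidence on Abca1.

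Levels of the 9 transcripts spanned a wide range per exon length. The median over the 6 libraries was 20.7 RPM per kb of exon for Insig1 and 18.7 for Srebf2, followed by Srebf1 at 9.10, Scap at 6.30, Npc1 at 4.31, Stard4 at 3.91, Insig2 at 3.14, Mylip at 1.20 and Abca1 at 0.95. Srebf2 exceeded Srebf1 in all 6 libraries with no overlap of their ranges, and Insig2 exceeded Mylip in all 6 although the ranges overlapped. Every other pair of neighbours in this order changed places in 1 or 2 of the 6 libraries. Abca1 was the lowest of the 9 in the untreated group, at 0.545 ± 0.224, and stood at 2.01 ± 0.805 in the tamoxifen group (SD, n = 3 each). Mylip, next to it, had 1.69 ± 0.740 in tamoxifen and 1.09 ± 0.147 in untreated libraries. Exon lengths came from GENCODE vM21, while the authors' counting rule is not given in the sources used here, so orders between genes hold for these lengths.

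**Figure D3:**
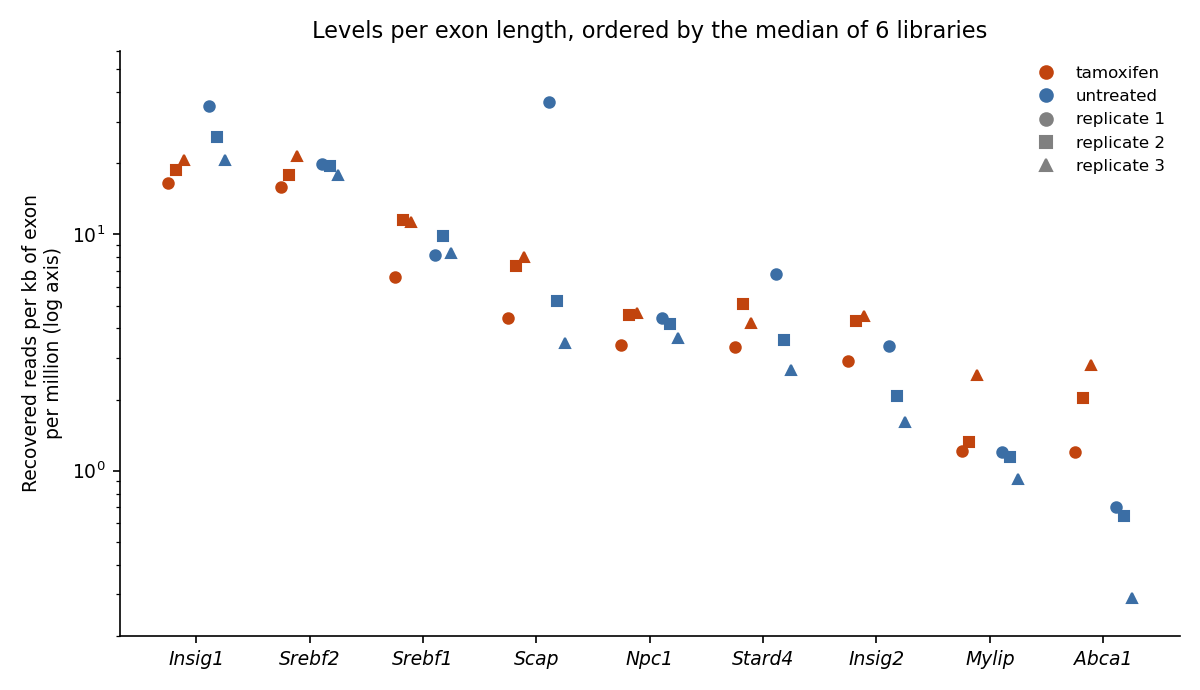
Recovered reads scaled to library total and exon length (RPM per kb, log axis) for the 9 genes, ordered by the median of the 6 libraries, with tamoxifen libraries left of untreated ones and 1 symbol per replicate number. Insig1 and Srebf2 are the most abundant at medians of 20.7 and 18.7, and Scap has 1 untreated library at 36.5 that stands apart.

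Related genes of the pathway were read from 5 lists, of which no gene is among the 9. Over all genes tested 0.195% were called, so 0 calls in lists this short say little about them. The cholesterol synthesis enzymes were lower most often. Of 18 tested, 17 had a negative log2 fold change and 12 had all tamoxifen values below all untreated ones, as did 7.33% of all genes, with a median of -0.53 against a median of -0.22 for the 9 genes. Only Cyp51, the lanosterol demethylase, was called (1 lower, 0 higher), at 2063, 1946 and 1820 in tamoxifen and 3727, 4350.3 and 3930.5 in untreated libraries (log2 fold change -1.04, limma adjusted p = 0.0349). Msmo1, the sterol C4-methyl oxidase, stood at -0.80 (limma adjusted p = 0.0854) and Fdft1, squalene synthase, at -0.85 (limma adjusted p = 0.0861).

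Lipoprotein uptake, transport and storage genes went both ways, with 12 higher and 7 lower and a median log2 fold change of 0.15. Of the 19 tested, 0 were called, against 0.195% of all genes. Lrp1, a large endocytic receptor, stood at 0.56 (limma adjusted p = 0.176). Vldlr, a lipoprotein receptor, was at 107, 58.5 and 97.9 in tamoxifen and 234, 176 and 175 in untreated libraries, on 25.2 reads on average (log2 fold change -1.17, limma adjusted p = 0.437).

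Among other genes of the LXR pathway, none of the 12 tested had groups without overlap, against 7.92% of all genes higher and 7.33% lower. So short a list cannot tell 0 from those shares. Some rested on few reads, such as Abcg5 with 0 to 5 per library and Nr1h3 with 5 to 14. Of the 12, 0 were called, against 0.195% of all genes tested. By sign 6 were higher and 6 lower, and the median was 0.0072. The partner receptor gene Rxra stood at 0.22 (limma adjusted p = 0.784) and the corepressor gene Ncor1 at -0.35 (limma adjusted p = 0.610). Apoe, which encodes a lipoprotein component, stood at 0.80 (limma adjusted p = 0.576) on deposited values but at -0.24 on recovered reads with trimmed-mean scaling, so its direction depended on the scale.

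Fatty acid synthesis genes, known targets of SREBP-1, had 0 of 15 called, against 0.195% of all genes, and a median of -0.072. Me1, malic enzyme, stood at 0.77 (limma adjusted p = 0.403) and Mid1ip1, an activator of acetyl-CoA carboxylase, at -0.40 (limma adjusted p = 0.492). Fasn, fatty acid synthase, was at 0.53 (limma adjusted p = 0.625), but at -0.24 on recovered reads with trimmed-mean scaling. The processing and degradation genes of the SREBP pathway also had 0 of 12 called, with a median of 0.084. Pgrmc1, a membrane haem protein, stood at 0.37 (limma adjusted p = 0.512), and Erlin1 and Erlin2, endoplasmic reticulum membrane proteins that bind cholesterol, at 0.39 and 0.33 (limma adjusted p = 0.713 and 0.641). At an unadjusted p under 0.05, 8 of the 18 cholesterol enzymes, 6 of the 19 uptake genes, 2 of the 15 fatty acid genes, 1 of the 12 processing genes and 0 of the 12 LXR genes passed, against 9.34% of all genes tested.

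**Figure D4:**
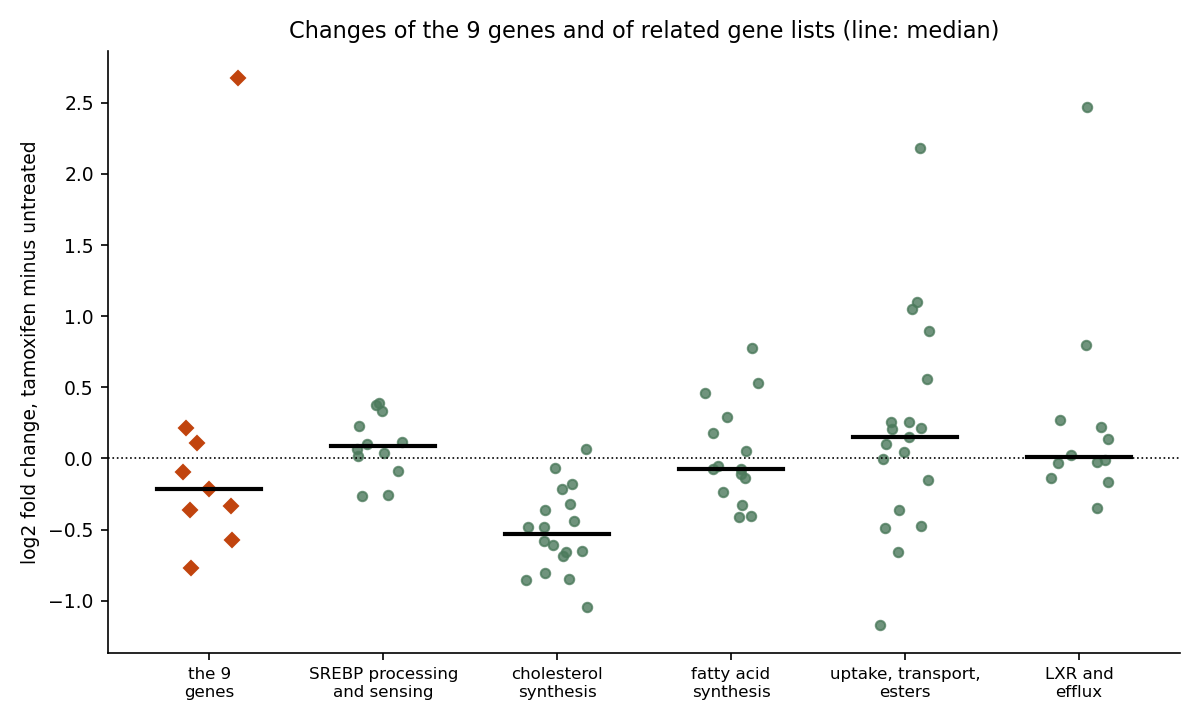
Log2 fold changes (vertical axis, tamoxifen minus untreated, deposited values) of the 9 genes and of 5 lists of related genes, 1 point per gene and a line at each median. The medians are -0.22 for the 9 genes, 0.084 for SREBP processing, -0.53 for cholesterol synthesis, -0.072 for fatty acid synthesis, 0.15 for uptake and transport and 0.0072 for LXR and efflux genes, and Abca1 is the highest of the 9 at 2.67.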

How the data were processed

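Total RNA depleted of ribosomal RNA was sequenced in 6 directional libraries, 3 tamoxifen and 3 untreated. The authors deposited 1 table of normalized read signal per Ensembl gene and library. TopHat2, bedtools, DESeq2 and the build mm9 are named without roles, per the submitters' processing notes, and annotation, counting rule and strand setting are not given in the sources used here. Each of the 100305 values above 0 fits 9.73 × k × (m + 0.1) / (k + 0.1) with whole k and m, with a relative misfit no larger than 5.11e-15. Reads were taken to be k, with 1 solution for 98.8% of values. Ranked within each library, m differed by at most 4 between libraries at any rank. The values thus had nearly the same distribution in every library, and their ratio to reads was not 1 factor per library. Fold changes on values and on reads can therefore differ in size for a gene.

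Values were compared as log2(value + 1) by limma 3.58.1 (R 4.3.3) with an expression trend, on the 17427 genes whose mean value reached 10, with calls below 0.05 after Benjamini-Hochberg adjustment. Each fold change is tamoxifen over untreated, and the added 1 shrinks those of low genes. Recovered reads were scaled to library totals (RPM), with and without trimmed-mean factors. Exact permutation tests used scipy 1.17.1. The fit was also run on simulated data, made with 1 fixed ratio of value to share of reads per gene. In the deposited values that ratio varied between libraries, so the simulation does not cover their normalization. Symbols and exon lengths came from GENCODE vM21 (GRCm38), and no mm9 coordinates are given. Members and lists were chosen with earlier results of these data known. From each list up to 3 genes of smallest p with a mean value of at least 50 are named, and any gene called, except 1 that is not reported here.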

Additional observations from a re-analysis of the deposited data

How the results depend on the processing

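None of the 9 genes was called by limma under any of the 13 alternatives, with a smallest adjusted p of 0.0892, for Abca1 when genes averaging under 10 recovered reads were left out, and a largest of 0.509 for that gene. Of 117 values of the 9 genes under alternatives, 110 kept their direction. Part of this was fixed in advance, since changing the filters or adding the replicate block leaves a gene's fold change as it was. On RPM, which moved the median of all genes to 0.24, Srebf1 was at 0.11, Npc1 at 0.028 and Stard4 at 0.046. With 1 library left out at a time, Srebf1 ranged from -0.19 to 0.019, Scap from -1.29 to 0.22 and Mylip from -0.13 to 0.30. The log2 ratio of Insig1 to Insig2 kept its direction under the alternatives run for it, at -1.27 on RPM and from -0.90 to -0.71 with 1 library left out. On deposited values leaving out a library could not reverse it, since both genes had groups without overlap, in opposite directions. The count of all genes called was 34, against 52 with a pseudocount of 10, 52 with no filter on low values, 15 when genes averaging under 10 reads were left out, 4 on RPM, 3 on recovered reads with trimmed-mean scaling (added after seeing the data) and 66 to 103 with 1 library left out. With a replicate block limma called 0 genes (1393 at an unadjusted p under 0.05, 2 of the 9 members among them). No pairing of libraries by replicate number was seen. Deviations of same-numbered libraries correlated at -0.05 to 0.0048, and 0 of the 6 correlated best with their own number. With 3 libraries per group this cannot exclude a pairing. Mylip had the fewest reads of the 9, at 18.5 on average, and Mylip and Abca1 each had 8 reads in untreated replicate 3. The causes of these shifts were not tested.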
